A study of Homo sapiens with 4 samples.

Results

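The nucleolar ribosome assembly factors are 43 genes whose proteins transcribe ribosomal RNA, process it and fold it with ribosomal proteins into subunits. They were chosen by gene symbol, all 43 had a row among the 26364 symbols of the deposited count table, and all 43 were among the 13574 genes abundant enough to be tested. The libraries came from HCT116, an established human colorectal carcinoma cell line. The cytoplasmic extract of each genotype was run on a sucrose gradient, which sorts mRNAs by how many ribosomes they carry. From each genotype a heavy library (at least 10 ribosomes per mRNA) and a light library (at most 9) were made. The groups were thus labelled Dicer1 knockout heavy, wild type heavy, labelled Dicer1 knockout light and wild type light polysomes, with 1 library in each and 2 gradients in all. The labels give neither the clone nor the site of the Dicer1 change.

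Library totals lay between 17457116 and 20933675 counts. DICER1, which encodes the enzyme that cuts microRNA precursors, is on the minus strand of chromosome 14 (GRCh38, start 95086228, end 95158010). It had 925 counts in labelled knockout heavy and 500 in wild type heavy polysomes, and 889 in labelled knockout light and 547 in wild type light polysomes. Its mRNA was therefore higher, not lower, in the libraries labelled knockout, and reads summed over the gene cannot tell whether a working enzyme is made. For this reason the name "labelled knockout" is kept, and every direction between the genotypes rests on that label. Of 8 epithelial markers, EPCAM, CDH1, KRT8, KRT18 and KRT19 had at least 719 counts in each library, VIL1 had none, CDH17 had at most 2 and CEACAM1 at most 62. Of 20 markers of stroma, vessels and blood, between 6 and 10 were at 0 in a library, and their summed level ran from 39.5 to 73.2 CPM (counts scaled to the library total), most of it from COL1A1, CD68 and ACTA2. The defining blood markers PTPRC and CD3E were at 0 in all 4 libraries.

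Ribosomes are built in the nucleolus. RNA polymerase I copies the ribosomal RNA genes into a long precursor, helped by UBTF, which coats the gene, and RRN3, which joins the polymerase to the promoter. Small nucleolar ribonucleoproteins then modify chosen bases: the box C/D particles methylate riboses and the box H/ACA particles turn uridines into pseudouridines. The small subunit processome folds and cuts the precursor toward the small subunit, a separate set of factors builds the large subunit, and late factors leave with the subunits for the cytoplasm. Cells that grow fast, tumour lines among them, make these factors in large amounts, and many of their genes are known targets of the transcription factor MYC, which binds the E-box CACGTG with its partner MAX.

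The E-box was searched in the promoters because it is the sequence that many of these genes are known to share. The RefSeq promoter table (GRCh38.p14) gives 250 bases before and 50 bases after each annotated start, and 37 of the 43 members had an entry. BOP1, NOLC1, NOP58, POLR1E, RRP12 and RRP1B were not among them. CACGTG, which reads the same on both strands, stood in the promoters of 19 of these 37 members (51.4%), against 12.5% of 10048 tested genes with a promoter entry. Counting only matches that lie wholly before the start, 5 of the 37 members had one (13.5%), against 11.2% of the tested genes, so the excess lay around and after the start. Of 21 matches in the members, 18 (85.7%) began within 35 bases of the annotated start, a limit set after the matches had been seen, against 415 of 1513 matches (27.4%) in the tested genes. A match is a description of these letters and not evidence of binding. Among members given below with all their counts, NCL, NOC2L, POLR1A, UTP3, NHP2, NOP16, NOP56, RRN3, UBTF and RIOK1 had a promoter entry without CACGTG. Windows are shown for those of them with a match. The E-box is in capitals with 10 bases on each side, read 5′ to 3′ in the direction of the gene.
FBL: cgctcttttcCACGTGcgaaagcccc
NOP10: aattgacgaaCACGTGacgcggtcgg
GAR1: gccagaggggCACGTGgcgccggtga
UTP20: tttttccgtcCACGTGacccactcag
NOP14: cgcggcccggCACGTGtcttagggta
PNO1: tgcagctgcgCACGTGtttcagccgg
GNL2: acgtcgtgcaCACGTGgtccggcgtg
NOC3L: gggacttcggCACGTGtgtcattccc
MYBBP1A: ggccggagcaCACGTGtttcgtgttt
On GRCh38.p14 the windows on the plus strand lie at chr4:109815783-109815808 for GAR1, chr12:101280085-101280110 for UTP20 and chr2:68157887-68157912 for PNO1. Those on the minus strand lie at chr19:39846358-39846383 for FBL, chr15:34343132-34343157 for NOP10 and chr4:2963376-2963401 for NOP14. The remaining windows on the minus strand lie at chr1:37595919-37595944 for GNL2, chr10:94362905-94362930 for NOC3L and chr17:4555342-4555367 for MYBBP1A. The E-box of NOP10 began 11 bases and that of UTP20 10 bases before the annotated start, and NOP10 had another one 170 bases before it. The others began after the start, from 3 bases in GNL2 to 31 in GAR1. No further motif was searched.

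The mRNAs of the family were present at very unequal levels. Counts of a member in a library ran from 79, for BOP1 in labelled knockout light polysomes, to 30930, for NCL in labelled knockout heavy polysomes. NCL encodes nucleolin, an abundant nucleolar protein that binds ribosomal RNA and its genes. It had 30930 counts in labelled knockout heavy and 25459 in wild type heavy polysomes, against 8340 in labelled knockout light and 4913 in wild type light polysomes. Both heavy libraries thus stood well above both light ones, and the share of all genes that separate so was not counted. Levels of different genes were compared per length, as CPM scaled between libraries by the TMM method and divided by the length of the canonical transcript in kilobases. On that scale the highest means over the 4 libraries were 455 CPM per kb for FBL, 293 for NOP10 and 238 for NCL. The lowest were 1.48 for POLR1A and 1.48 for UTP20. Fibrillarin, a small protein of the H/ACA particle and nucleolin thus stood at the top, and 2 of the longest members at the bottom.

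**Figure D1:**
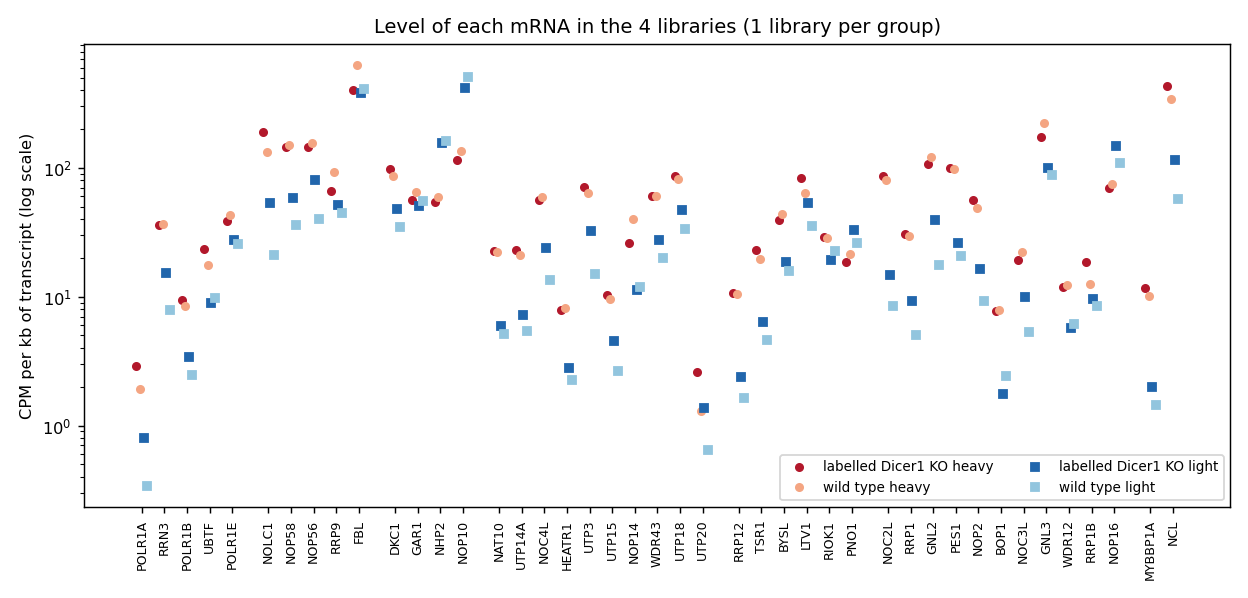
Level of each of the 43 mRNAs in the 4 libraries, in TMM-scaled CPM per kilobase of canonical transcript on a log scale; circles are heavy and squares light polysomes, dark symbols the labelled knockout and pale symbols the wild type, with 1 library per group. Most members have both circles above both squares, while NOP10, NHP2, NOP16 and PNO1 have both squares above both circles.

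The first comparison asked which of these mRNAs carry many ribosomes and which few. Most assembly factor mRNAs were enriched in heavy polysomes relative to other mRNAs. Libraries were scaled to one another, and the amount of RNA in each fraction did not enter. A ratio above 0 therefore does not say that most copies of an mRNA sat in heavy polysomes. Of the 43, 36 rose in heavy over light polysomes (83.7%, against 30.0% of all genes tested), 3 fell (against 29.3%) and 4 did not pass the test. At least 2-fold higher in heavy polysomes were 31 of them, against 20.1% of all genes. The median log2 ratio of heavy over light was 1.504 over the members and -0.07 over all genes tested. Calls are from edgeR's quasi-likelihood test at a Benjamini-Hochberg adjusted p under 0.05 over all genes, and the fit held each gradient as a block. The 2 gradients are the replicates of this contrast, so the p-values rest on how far labelled knockout and wild type disagree, with 1 residual degree of freedom. The fit gave infinite weight to a spread shared across genes, so a gene's own disagreement between the gradients hardly enters its p-value. The calls of POLR1E, RRP9, LTV1 and RRP1B were lost with scaling by library totals and without the block, and that of UTP20 without the block.

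The polymerase I genes all rose in heavy polysomes, 5 of 5 (against 30.0% of all genes tested), with a median log2 ratio of 1.63. POLR1A, the largest subunit of the enzyme, had 650 counts in labelled knockout heavy and 451 in wild type heavy polysomes, against 183 in labelled knockout light and 93 in wild type light polysomes. Its fitted log2 ratio was 2.16 (SE 0.27, edgeR adjusted p = 1.90e-13). RRN3 stood at 1.74, POLR1B, the second-largest subunit, at 1.63, UBTF at 1.12 and POLR1E, a subunit of the part that associates with the core enzyme, at 0.62 (edgeR adjusted p = 0.0358). The row RNA45S5, named after the polymerase's own product, was not called toward either fraction (log2 ratio -0.23, edgeR adjusted p = 0.604). It held from 2.61% of counts in wild type heavy to 5.97% in labelled knockout light polysomes. Its reads do not tell the precursor from the mature ribosomal RNA cut from it, so they are no measure of transcription.

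The 2 kinds of modification particle differed in where their mRNAs lay. They also differed in median coding length, which was 1587 nucleotides for the box C/D and 555 for the box H/ACA genes. Of the box C/D genes, 4 of 5 rose in heavy polysomes (against 30.0% of all genes tested), with a median of 1.40. NOLC1, a chaperone of small nucleolar ribonucleoproteins, was counted here with the box C/D genes but is not specific to them. It had 12898 counts in labelled knockout heavy and 9340 in wild type heavy polysomes. In light polysomes it had 3635 in the labelled knockout and 1727 in the wild type (log2 ratio 2.25, SE 0.32, edgeR adjusted p = 8.74e-11). The scaffold proteins NOP58 and NOP56 stood at 1.69 and 1.40, and RRP9, a protein of the U3 particle, at 0.71. FBL, the methyltransferase fibrillarin, was the exception: it had 8195 counts in labelled knockout heavy and 13370 in wild type heavy polysomes, against 7912 in labelled knockout light and 10071 in wild type light polysomes. Its heavy and light libraries overlapped, and its log2 ratio of 0.35 (SE 0.31) did not pass the test (edgeR adjusted p = 0.333).

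The 4 core proteins of the box H/ACA particle were spread across the gradient. DKC1, the pseudouridine synthase dyskerin, rose in heavy polysomes at 1.18 (SE 0.29, edgeR adjusted p = 1.78e-04). GAR1 had 1031 counts in labelled knockout heavy and 1255 in wild type heavy polysomes, against 946 in labelled knockout light and 1237 in wild type light polysomes. The counts overlapped, while on the TMM scale the heavy values of 57.0 and 66.4 CPM lay just above the light values of 51.5 and 56.2 CPM. The ratio of 0.19 (SE 0.26) did not pass (edgeR adjusted p = 0.539); with scaling by library totals it was -0.04. NOP10 and NHP2, the smallest members of the particle, were enriched in light polysomes. NOP10 had 1064 counts in labelled knockout heavy and 1302 in wild type heavy polysomes, against 3868 in labelled knockout light and 5619 in wild type light polysomes (log2 ratio -1.87, SE 0.29, edgeR adjusted p = 3.05e-09). NHP2 had 771 counts in labelled knockout heavy and 880 in wild type heavy polysomes, against 2231 in labelled knockout light and 2788 in wild type light polysomes (-1.48, SE 0.27, edgeR adjusted p = 6.03e-07). For both, each light library exceeded each heavy one, which is given as description only. Exons of NHP2 overlap those of RMND5B on the opposite strand over 28.0% of their bases, so part of its reads cannot be assigned with certainty.

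**Figure D2:**
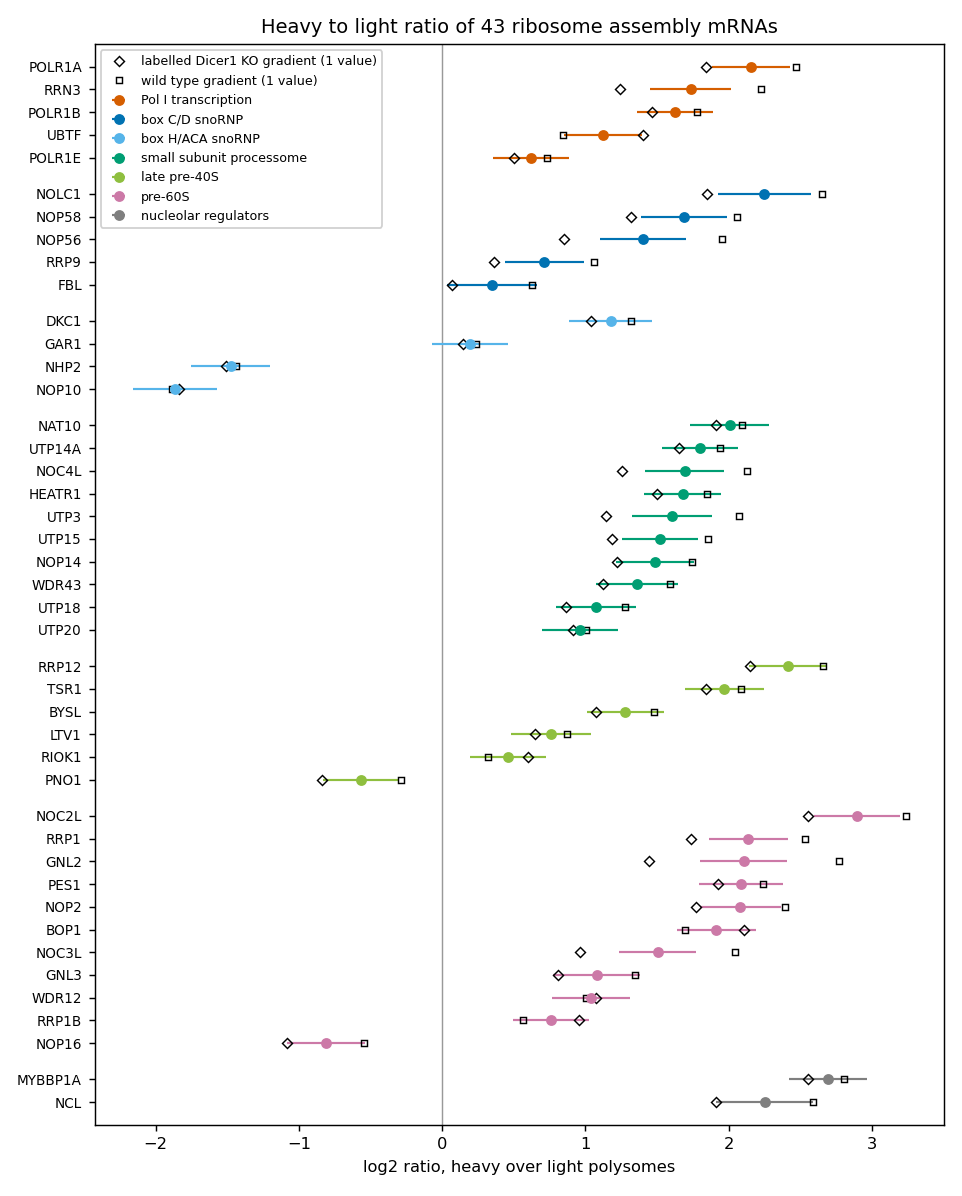
Log2 ratio of heavy over light polysomes for each member, by role. Filled circles with bars are the ratios fitted over both gradients with their standard errors, open diamonds the labelled knockout gradient alone and open squares the wild type gradient alone; NOC2L is highest at 2.90 and NOP10 lowest at -1.87, and most diamonds lie left of their squares.

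All 10 members of the small subunit processome rose in heavy polysomes (against 30.0% of all genes tested), with a median of 1.56. They ran from 0.97 for UTP20 to 2.01 for NAT10, which acetylates cytidines of 18S ribosomal RNA. Between them lay the scaffold proteins HEATR1 at 1.68, UTP15 at 1.52, UTP18 at 1.07 and WDR43 at 1.36. UTP14A stood at 1.801 and UTP3 at 1.61. NOC4L and NOP14, which act together in the yeast processome, stood at 1.69 and 1.49. Exons of HEATR1 overlap those of LGALS8 on the opposite strand over 23.1% of their bases, and those of NOP14 overlap NOP14-AS1 over 20.7%.

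The late factors of the small subunit were more mixed, with 4 of 6 higher in heavy polysomes (against 30.0% of all genes tested) and a median of 1.02. RRP12, known in yeast for the export of both subunits, had 846 counts in labelled knockout heavy and 867 in wild type heavy polysomes, against 192 in labelled knockout light and 158 in wild type light polysomes (2.42, SE 0.27, edgeR adjusted p = 2.23e-16). TSR1 stood at 1.97, BYSL at 1.28 and LTV1 at 0.76. The other 2, both of which act at the last steps of 18S maturation, did not pass. PNO1 had 753 counts in labelled knockout heavy and 909 in wild type heavy polysomes, against 1368 in labelled knockout light and 1293 in wild type light polysomes. PNO1 stood at a ratio of -0.56 (SE 0.27, edgeR adjusted p = 0.0561). With scaling by library totals it was called toward light polysomes (-0.80, edgeR adjusted p = 0.00684). RIOK1, a kinase, stood at 0.46 (edgeR adjusted p = 0.124). Exons of TSR1 overlap those of SRR on the opposite strand over 23.9% of their bases.

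Of the 11 factors of the large subunit, 10 rose in heavy polysomes (against 30.0% of all genes tested) and 1 fell (against 29.3%), with a median of 1.91. NOC2L, whose yeast counterpart works on early large subunit precursors, had the highest ratio of all members. It had 4298 counts in labelled knockout heavy and 4215 in wild type heavy polysomes, against 742 in labelled knockout light and 518 in wild type light polysomes (2.90, SE 0.30, edgeR adjusted p = 1.67e-18). The 3 proteins of the PeBoW complex, which processes the precursor of 28S ribosomal RNA, were PES1 at 2.08, BOP1 at 1.91 and WDR12 at 1.04. The methyltransferase NOP2 stood at 2.08, RRP1 at 2.14, its relative RRP1B at 0.76, NOC3L at 1.504, and the GTPases GNL2 and GNL3 (nucleostemin) at 2.11 and 1.08. NOP16 fell in heavy polysomes: it had 1119 counts in labelled knockout heavy and 1252 in wild type heavy polysomes, against 2404 in labelled knockout light and 2127 in wild type light polysomes (-0.81, SE 0.27, edgeR adjusted p = 0.00644). Its exons overlap those of ARL10 on the opposite strand over 18.6% of their bases, but ARL10 had 3 counts in all. Both nucleolar regulators rose: MYBBP1A, which is linked to polymerase I transcription and to ribosomal RNA processing, at 2.70 (SE 0.27, edgeR adjusted p = 5.24e-19) and NCL at 2.25 (SE 0.34, edgeR adjusted p = 5.51e-10). MYBBP1A had 971 counts in labelled knockout heavy and 876 in wild type heavy polysomes, against 166 in labelled knockout light and 144 in wild type light polysomes.

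Coding length, which limits how many ribosomes an mRNA can hold, varied widely among the members, from 192 nucleotides in NOP10 to 8355 in UTP20. Those that fell were the shortest: NOP10, NHP2 with 459 and NOP16 with 534 nucleotides. They were followed in length by GAR1 with 651, PNO1 with 756 and FBL with 963, none of which passed the test. RIOK1, with 1704 nucleotides, was the other member that did not pass, and each remaining member had at least 1257. Across the 43 members, coding length and the ratio had a Spearman's rho of 0.64 and a Pearson's r on log2 length of 0.76, against 0.55 and 0.54 across 12536 tested genes with a coding length. These are descriptions across genes, which share the same 4 libraries.

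Set against genes of like coding length, the members still lay high. In each class of coding length above 1000 nucleotides every member stood above the median of all tested genes of that class. In the class above 1500 and up to 2000 nucleotides the 10 members had a median of 1.46, against 0.36 for all 1952 genes. In the class above 2000 and up to 3000 the 13 members had a median of 1.91, against 0.56 for all 2037 genes. Of all 43 members, 39 stood above the median of their class, and the median difference was 1.03 on the log2 scale. The exceptions were NOP10, NHP2, NOP16 and, by 0.05, PNO1. Long members also differed among themselves: UTP20, with the longest coding sequence, was 0.06 above its class, while NOC2L, with 2247 nucleotides, was 2.34 above its class. For comparison, the mRNAs of 76 cytosolic ribosomal proteins, the cargo of these factors, had a median log2 ratio of -0.98 at a median coding length of 455 nucleotides, and their median difference from their length classes was 0.02.

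**Figure D3:**
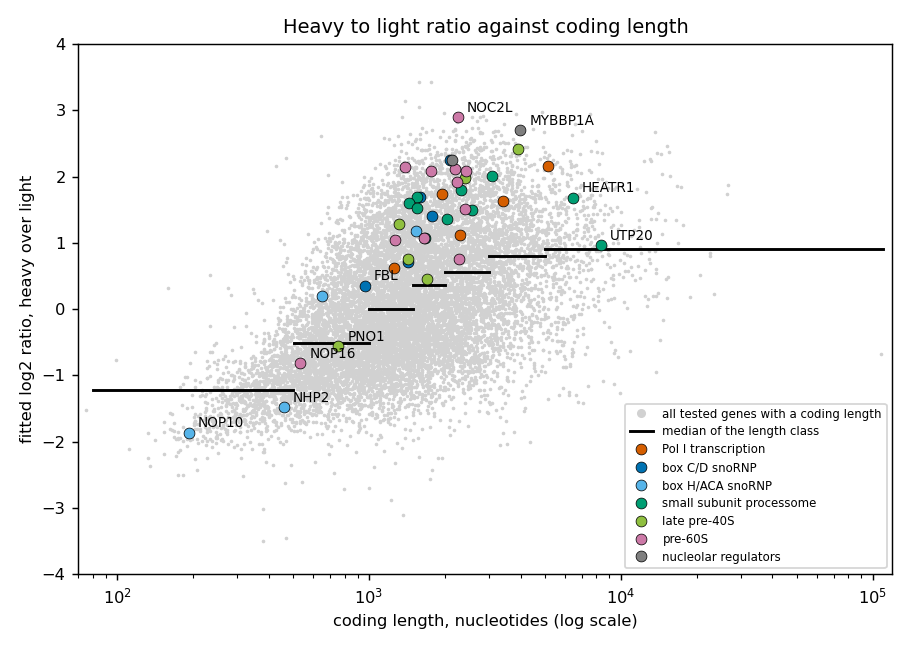
Fitted log2 ratio of heavy over light polysomes against coding length (log scale) for the 43 members, coloured by role, and for all tested genes with a coding length in grey, with the median of each length class as a black line; 1 gene lies outside the axes. The members above 1000 nucleotides all lie above the line of their class, and NOP10, NHP2 and NOP16 lie below it.

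The second comparison was made inside each fraction, between the labelled knockout and the wild type. With 1 library on each side it has no replicate check and no p-value. Differences are log2 ratios of TMM-scaled CPM with a prior count of 2, each with a 95% interval that covers counting error only. In heavy polysomes the family hardly differed as a whole. The median log2 ratio of labelled knockout over wild type was 0.02, against -0.02 for all genes tested, and 22 of 43 members lay above 0 (48.4% of all genes did). None of the 43 was 2-fold higher (5.27% of all genes) and none 2-fold lower (3.79%). The range was -0.64 for FBL to 0.98 for UTP20. The counting interval lay above 0 for 16 members (29.4% of all genes) and below 0 for 12 (33.7%).

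In light polysomes most members were higher in the labelled knockout. The median log2 ratio was 0.46, against 0.00 for all genes tested. Above 0 lay 34 of 43 members (50.1% of all genes), and the interval was above 0 for 33 (33.6%) and below 0 for 5 (32.4%). At least 2-fold higher were 7 members (4.96% of all genes), namely NOLC1, POLR1A, GNL2, UTP3, UTP20, NCL and NOP56, and none was 2-fold lower (4.30%). By role the median was 0.74 for the nucleolar regulators, 0.71 for the box C/D genes, 0.48 for the small subunit processome, 0.46 for the polymerase I genes, 0.44 for the large subunit factors, 0.41 for the late small subunit factors and -0.09 for the 4 box H/ACA genes. Of these 4, GAR1, NHP2 and NOP10 lay below 0, while DKC1 stood at 0.45 (0.36 to 0.54); differences between roles were not tested. With scaling by library totals 4 members were 2-fold higher. A further setting mixed part of the wild type heavy library into the wild type light one, as described below with the shift. There the direction of the median turned (-0.13), but the median of all genes was -0.08, so the members lay near it. In that setting 0 members were 2-fold higher. The shares of all genes past 2-fold in these settings were not counted. The summed level of the 8 epithelial markers was 3437 CPM in labelled knockout light and 1925 CPM in wild type light polysomes, and 9379 and 7890 CPM in labelled knockout heavy and wild type heavy polysomes; their part in the result was not tested.

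The members highest in the labelled knockout over both fractions were UTP20, NOLC1, POLR1A, NCL and UTP3. UTP20, a very large protein of the small subunit processome, had 424 counts in labelled knockout heavy against 223 in wild type heavy polysomes, and 228 in labelled knockout light against 128 in wild type light polysomes. Its log2 ratios were 0.98 (counting interval 0.75 to 1.22) and 1.08 (0.77 to 1.39), so that the labelled knockout was higher in both fractions, and its light library overlapped the wild type heavy one. NOLC1 stood at 0.53 (0.49 to 0.57) in heavy and 1.33 (1.25 to 1.42) in light polysomes, from the counts given above. POLR1A stood at 0.59 (0.42 to 0.76) and 1.22 (0.86 to 1.57), and NCL at 0.34 (0.32 to 0.37) and 1.02 (0.97 to 1.08). UTP3 had 2590 counts in labelled knockout heavy against 2422 in wild type heavy polysomes, and 1191 in labelled knockout light against 668 in wild type light polysomes (0.16, 0.08 to 0.24, and 1.09, 0.96 to 1.23). For the last 4 of these genes the ratio was larger in light than in heavy polysomes.

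The members lowest in the labelled knockout were FBL, NOP14, NOP10, BOP1 and GAR1. FBL stood at -0.64 (-0.68 to -0.60) in heavy and -0.09 (-0.13 to -0.04) in light polysomes. NOP14 had 1677 counts in labelled knockout heavy against 2694 in wild type heavy polysomes, and 730 in labelled knockout light against 932 in wild type light polysomes (-0.62, -0.71 to -0.53, and -0.09, -0.23 to 0.05). The differences of both genes thus lay mainly in heavy polysomes. NOP10 was slightly lower in both (-0.23, -0.34 to -0.11, and -0.28, -0.34 to -0.22), and so was GAR1 (-0.22, -0.34 to -0.10, and -0.13, -0.25 to -0.003). BOP1, the least abundant member by mean CPM, had 342 counts in labelled knockout heavy against 363 in wild type heavy polysomes, and 79 in labelled knockout light against 129 in wild type light polysomes (-0.02, -0.23 to 0.19, and -0.44, -0.84 to -0.04). The ratios were above 0 in both fractions with both intervals clear of 0 for 15 members (16.9% of all genes), and below 0 in both for 3 (16.7%). For 7 members (8.85% of all genes) the ratio was below 0 in heavy and above 0 in light polysomes, with both intervals clear of 0. MYC mRNA itself stood at -0.36 in heavy and -0.27 in light polysomes. The 19 members with an E-box in the promoter had a median ratio of -0.16 in heavy polysomes and 0.34 in light ones, and the 18 without one 0.08 and 0.62. These groups also differed in their median heavy to light ratio, 1.28 with an E-box and 1.62 without. The difference between them was not tested, nor was any link to MYC. The row RNA45S5, whose reads do not tell precursor from mature ribosomal RNA, was higher in the labelled knockout, at 0.67 in heavy and 0.82 in light polysomes.

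**Figure D4:**
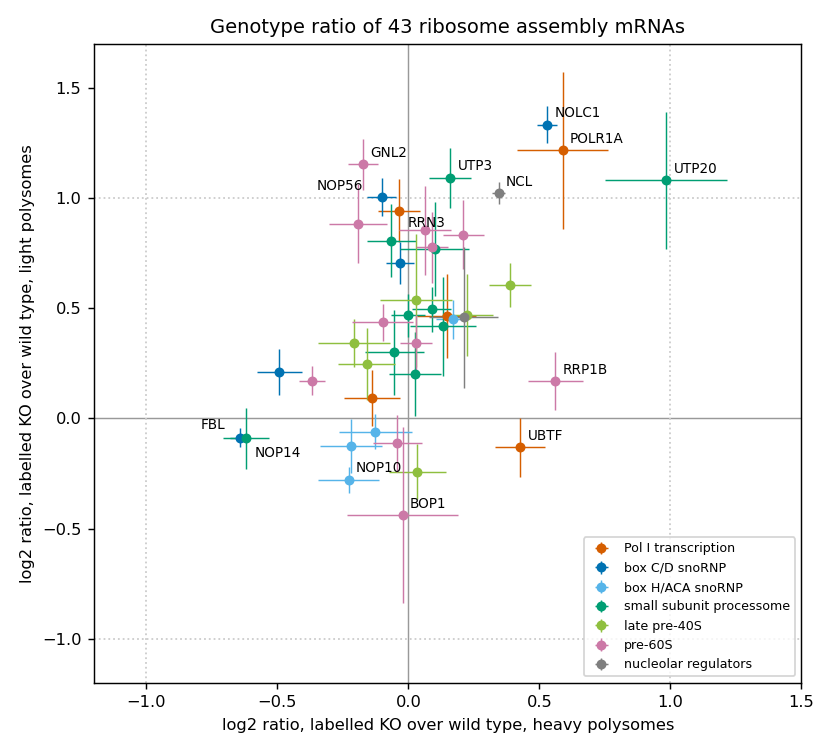
Log2 ratio of labelled knockout over wild type in heavy polysomes (horizontal) and in light polysomes (vertical) for the 43 members, coloured by role, with 95% counting intervals as bars and dotted lines at 2-fold. No member passes 2-fold in heavy polysomes, 7 pass it upward in light polysomes, and FBL and NOP14 lie farthest to the left at -0.64 and -0.62.

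Both pairs can be read as a shift of each mRNA along the gradient, its log2 ratio of heavy over light in the labelled knockout less the same ratio in the wild type. The shift was below 0, that is toward light polysomes in the labelled knockout, for 37 of 43 members (50.9% of all genes tested), with a median of -0.47, against -0.01 for all genes. Against the mixed wild type light library the median shift turned to 0.12, near the 0.10 of all genes in that setting. Without the mixing, the counting interval of the shift lay below 0 for 32 members (30.5% of all genes) and above 0 for 3 (25.1%). A shift of at least 2-fold toward light polysomes was seen in 3 members (3.19% of all genes), and none shifted 2-fold toward heavy polysomes (3.56%). The heavy to light ratios of the members had a median of 1.18 in the labelled knockout gradient and 1.78 in the wild type gradient.

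The largest shifts toward light polysomes were those of GNL2, NOP56, NOC3L and RRN3. GNL2, a nucleolar GTPase of large subunit assembly, had 4563 counts in labelled knockout heavy and 5378 in wild type heavy polysomes, and 1702 in labelled knockout light and 915 in wild type light polysomes. Its shift was -1.33 (counting interval -1.46 to -1.199), with heavy to light ratios of 1.44 in the labelled knockout and 2.77 in the wild type. NOP56 had 5069 counts in labelled knockout heavy and 5686 in wild type heavy polysomes, and 2853 in labelled knockout light and 1703 in wild type light polysomes (shift -1.11, -1.21 to -1.005). For both genes the heavy count was lower and the light count higher in the labelled knockout. NOC3L had 1210 counts in labelled knockout heavy and 1446 in wild type heavy polysomes, and 628 in labelled knockout light and 407 in wild type light polysomes (-1.08, -1.29 to -0.87). RRN3 had 2412 counts in labelled knockout heavy and 2586 in wild type heavy polysomes, and 1032 in labelled knockout light and 642 in wild type light polysomes (-0.98, -1.14 to -0.82). Its pseudogene rows RRN3P1 and RRN3P3 held 64 counts in all.

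The members with the highest shifts were UBTF, BOP1, RRP1B and RIOK1. UBTF had 2052 counts in labelled knockout heavy and 1595 in wild type heavy polysomes, and 787 in labelled knockout light and 1033 in wild type light polysomes, a shift of 0.56 (0.39 to 0.72). RRP1B had 1701 counts in labelled knockout heavy and 1204 in wild type heavy polysomes, and 890 in labelled knockout light and 948 in wild type light polysomes (0.39, 0.22 to 0.56). Both mRNAs lay farther toward the heavy end in the labelled knockout, the opposite of most members. RIOK1 had 1316 counts in labelled knockout heavy and 1343 in wild type heavy polysomes, and 882 in labelled knockout light and 1250 in wild type light polysomes (0.28, 0.11 to 0.44). The interval of BOP1 included 0 (0.41, -0.04 to 0.87). Within the polymerase I machinery, the shifts of UBTF and RRN3 thus had opposite signs. With 1 library per group this difference was not tested.

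For members that lay well toward heavy polysomes the median shift was near that of all mRNAs with a like position on the gradient, and for those toward light polysomes it was lower. Among all 2295 tested genes with a fitted heavy to light ratio from 1 to 2 the median shift was -0.46, and for the 20 members in that class it was -0.44, with 10 of the 20 below the median of the class. Among the 452 genes with a ratio above 2 the median shift was -0.69, and for the 11 members there -0.63. The 8 members with a ratio from 0 to 1 had a median shift of -0.16, against -0.10 for all genes of that class. NOP16 and PNO1, the 2 members from -1 to 0, had a median of -0.54, against 0.21 for all genes there, and NOP10 and NHP2, under -1, had -0.01, against 0.28. In light polysomes the median ratio of labelled knockout over wild type was 0.47 for the members with a heavy to light ratio from 1 to 2, against 0.38 for all genes there, and 0.83 for the members above 2, against 0.66. The gradients also differed in how far they separated mRNAs: the interquartile range of the log2 heavy to light ratio over all tested genes was 1.37 in the labelled knockout and 1.83 in the wild type. The mixed library used above was a wild type light library in which 24.3% of the scaled counts came from the wild type heavy library, the share that makes these ranges equal. Whether the gradients differed in biology or in separation cannot be told apart with 1 gradient per genotype. In these bulk libraries a lower level per cell and a smaller share of cells cannot be told apart either.

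**Figure D5:**
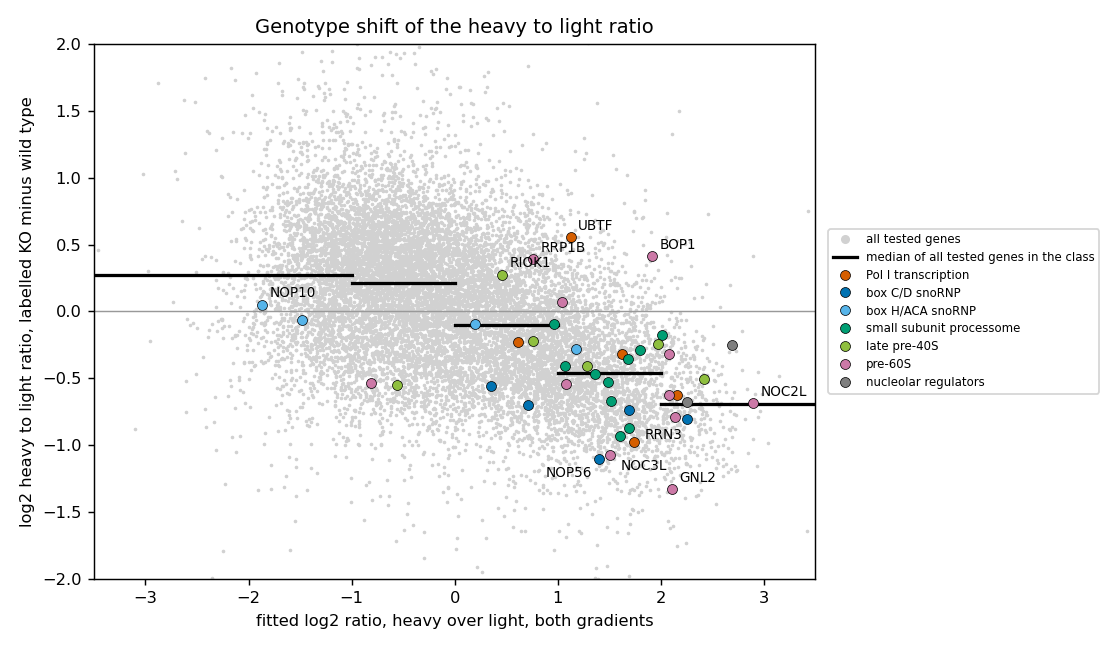
Shift of the log2 heavy to light ratio, labelled knockout minus wild type, against the ratio fitted over both gradients, for the 43 members, coloured by role, and for all tested genes in grey, with the median of all tested genes in 5 classes of the fitted ratio as black lines; 48 genes lie outside the axes. Members with a ratio above 1 scatter around the lines of their classes at -0.46 and -0.69, with GNL2 lowest at -1.33 and UBTF highest at 0.56.

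Other genes of ribosome assembly outside the 43 were taken from 4 lists. Of the 129 with a row, all tested, 84 rose in heavy polysomes (65.1%, against 30.0% of all genes tested), 20 fell (against 29.3%) and 25 did not pass, with a median log2 ratio of 0.96. Of 42 other small subunit factors 29 rose and 5 fell (median 1.27). The highest were TBL3 at 2.69 and PWP2 at 2.40, both scaffold proteins of the processome, and the lowest UTP23 at -1.19 and ABT1 at -1.03. Of 47 other large subunit factors 34 rose and 5 fell (median 0.96). LAS1L, which takes part in removing an internal spacer of the precursor, stood at 2.72 and the helicase DDX24 at 2.54, whereas SBDS, which releases the factor that keeps subunits apart, stood at -1.26 and SENP3 at -1.01. Exons of TBL3 overlap those of NOXO1 on the opposite strand over 30.0% of their bases, and those of UTP23 overlap RAD21, which had 45736 counts, over 13.1%. For SENP3, 41.7% of exon bases also belong to the readthrough gene SENP3-EIF4A1.

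Of 24 genes of snoRNP assembly and the exosome, the complex that trims RNA from its 3′ end, 13 rose (against 30.0% of all genes) and 7 fell (against 29.3%), with a median of 0.61. The exosome nuclease EXOSC10 stood at 2.17 and the helicase RUVBL2 at 1.92, against NHP2L1, which binds box C/D RNA, at -1.24 and C1D at -1.41. Of 16 other genes of polymerase I and nucleolar transcription 8 rose (against 30.0%) and 3 fell (against 29.3%), with a median of 0.50. TCOF1, the protein treacle, stood at 2.72 and the polymerase subunit POLR1C at 1.78, whereas the small subunits POLR1D and ZNRD1 stood at -1.54 and -0.97. In both of these lists the genes lowest on the scale had coding sequences of at most 423 nucleotides.

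Between the genotypes the median log2 ratio of the further genes in heavy polysomes was -0.16, with 36 of 129 above 0 (48.4% of all genes). In light polysomes the median was 0.33, with 94 of 129 above 0 (50.1% of all genes). Their median shift was -0.51, and 113 of 129 were below 0 (50.9% of all genes). Differences between these lists and the members were not tested. The highest over both fractions were 4 large subunit factors. FTSJ3, a methyltransferase, stood at 0.53 in heavy and 1.34 in light polysomes, and the giant ATPase MDN1 at 0.71 and 0.82. The helicases DDX24 and DDX18 stood at 0.18 and 1.35, and at 0.31 and 1.199. The lowest were ABT1 (-0.95 and -0.76), TAF1D, a subunit of the polymerase I selectivity factor (-0.80 and -0.67), ZNRD1 (-1.03 and -0.43) and RPF1 (-1.33 and -0.05). RPF1 had 3305 counts in labelled knockout heavy against 8684 in wild type heavy polysomes, and 3482 in labelled knockout light against 4317 in wild type light polysomes, and its interval in light polysomes, -0.11 to 0.02, included 0. Exons of FTSJ3 overlap those of PSMC5 on the opposite strand over 12.6% of their bases, and those of ZNRD1 overlap ZNRD1-AS1 over 24.5%.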

How the data were processed

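Polysomal RNA of 4 HCT116 libraries was sequenced. The authors deposited 1 table of unscaled whole-number counts, with a row for each gene symbol and unequal library totals. The submitters' processing notes name the build hg19 and the tools CASAVA, STAR and HTSeq, without versions; the strand setting is not given in the sources used here. All 43 members had an entry in GENCODE release 44 (GRCh38), which served for positions, lengths and exon overlaps with other rows of the table.

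Heavy over light was fitted with edgeR 4.0.16 in R 4.3.3 (TMM scaling, filterByExpr, quasi-likelihood test, gradient as a block). SE is the absolute log2 ratio over the root of the F statistic. Genotype ratios have no test. Intervals cover counting error only, because each group has 1 library. PCR copies of a molecule are not told apart, which can make the intervals too narrow. Nothing says that the libraries came from separate cultures. DESeq2 1.42.0, other scalings, no filter, no block, another prior count and a mixed light library were tried.

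Members and lists were chosen with earlier results of these data known. Members given with all counts were the 6 highest and 6 lowest by heavy to light ratio, the 5 highest and 5 lowest by the mean genotype ratio, the 4 highest and 4 lowest by shift and the 3 most abundant. Of the further lists, the 2 highest and 2 lowest per list by heavy to light ratio were named, and the 4 highest and 4 lowest overall by genotype ratio where the larger count of each pair reached 100.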

Additional observations from a re-analysis of the deposited data

Results flagged for a closer look

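In 7 members the ratio of labelled knockout over wild type lay below 0 in heavy and above 0 in light polysomes, with both counting intervals clear of 0, as in 8.85% of all genes tested. The difference between the fractions was not tested, since each value rests on 1 library a side. The difference, heavy minus light, was -1.33 for GNL2, -1.11 for NOP56 and -1.08 for NOC3L. It was -0.70 for RRP9, -0.55 for PNO1, -0.54 for GNL3 and -0.41 for BYSL. PNO1, with a fitted heavy to light ratio of -0.56, is the 1 member of these 7 that lay toward light polysomes.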

How the results depend on the processing

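With DESeq2 size factors, with no filter on low counts and with the DESeq2 Wald test, 36 members rose and 3 fell in heavy polysomes, as with TMM and edgeR. With library totals 32 and 4 were called, and with no gradient block 31 and 3. Library totals moved the median heavy to light ratio of all genes to -0.30, against -0.07 with TMM, and that of the members to 1.27, so that the members stood 1.57 above all genes with either scaling; over all genes the share of calls toward heavy polysomes was 38.9% with library totals and 50.6% with TMM. Under library totals GAR1 changed sign, at -0.04 (-0.0409), PNO1 was called toward light polysomes, and POLR1E, RRP9, LTV1 and RRP1B were no longer called. Without the block POLR1E, RRP9, LTV1, RRP1B and UTP20 were not called (edgeR adjusted p between 0.0617 and 0.120), and over all genes 2857 rose and 2183 fell, against 4074 and 3977 with it. The median ratio was 1.18 in the labelled knockout gradient alone and 1.78 in the wild type gradient alone. Leaving out the 8 members with exon overlap above 5% or a pseudogene row, chosen after seeing the data, left 30 of 35 called toward heavy and 1 toward light polysomes, since NHP2 and NOP16 were among those left out.

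Between the genotypes, library totals gave 1 member 2-fold higher in heavy polysomes, UTP20, and 4 in light polysomes. With a 1.5-fold threshold 2 members were higher and 2 lower in heavy polysomes, and 16 higher in light polysomes. The shares of all genes past each threshold at these settings were not counted, so these counts have no background. With library totals the median ratio in light polysomes was 0.38 for the members and -0.08 for all genes. Against the mixed wild type light library no member (0) was 2-fold higher and 1 was 2-fold lower. The median was -0.13, against -0.08 for all genes. The median shift, an addition made after seeing the data, became 0.12, against 0.10 for all genes. The mixing changes the wild type library only. No paired analysis was possible because each genotype has 1 library in each fraction; the fit of heavy over light alone has the gradient as a block. The lowest count of a member, 79, limits the precision for BOP1.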
